A study of Mus musculus with 21 samples.

Results

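The genes Psma1 to Psma7 encode the 7 alpha subunits of the 20S proteasome. They were selected by their symbols from a table of counts for 47729 genes, which holds a single row for each of them, so 7 of 47729 genes are described here. The RNA came from mouse bone marrow hematopoietic stem cells (HSCs), sorted as CD48- LSK CD150+ cells, where LSK stands for lineage-negative, Sca-1-positive, Kit-positive cells. Libraries were made by SMART-seq2, a full-length method for small amounts of RNA, and number 21 in 7 groups of 3. In the treatment experiment (12 libraries) the mice were wild type (WT) or carried Mx1-Cre and a floxed Atg5, and each genotype received 10% DMSO or bortezomib at 10 mg/kg. Injections were retro-orbital, 48 h and 24 h before analysis. Bortezomib is a reversible inhibitor of the proteasome's catalytic beta subunits, chiefly the chymotrypsin-like one. Mx1-Cre is a Cre recombinase under an interferon-inducible promoter that is active in many cell types besides HSCs. The titles name the second genotype Atg5-/- and the genotype field writes Atgfl/fl. It is called knockout-labelled below. In the reporter experiment (9 libraries) HSCs of untreated RFP-EGFP-LC3 mice, which express an LC3 autophagosome protein fused to a pair of fluorescent proteins, were sorted into RFP single positive, RFP GFP double positive and double negative cells. The sources used here do not give age, how Mx1-Cre was induced, whether WT mice carried Cre, or the number of animals per library. The p-values therefore measure the spread between these libraries, which may be technical.

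The 20S proteasome is a barrel of stacked rings that, together with the 19S cap, degrades ubiquitin-tagged proteins. The outer alpha rings form the gate and the docking surface for the 19S cap, whose ATPase tails insert into pockets between neighbouring alpha subunits, and the inner beta rings hold the protease sites. Alpha rings are built first, with dedicated chaperones, and serve as the template for the beta rings, and each alpha subunit is needed at the same copy number per ring. In many cells inhibition of the proteasome raises transcription of its own subunit genes through the factor Nfe2l1, which acts at antioxidant response elements. HSCs are known for low protein synthesis and a low tolerance of misfolded proteins.

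In ring order the subunits are alpha1 (Psma6), alpha2 (Psma2), alpha3 (Psma4), alpha4 (Psma7), alpha5 (Psma5), alpha6 (Psma1) and alpha7 (Psma3). The genes lie on 6 chromosomes of GRCm38, and Psma6 and Psma3 are the pair that shares one. Psma6 (ENSMUSG00000021024.14) occupies chromosome 12, 55384222 to 55418454, on the plus strand, and Psma3 (ENSMUSG00000060073.9) occupies chromosome 12, 70974621 to 70996347, on the plus strand. Psma2 (ENSMUSG00000015671.10) lies on chromosome 13, 14613240 to 14674236, plus strand, and Psma4 (ENSMUSG00000032301.13) on chromosome 9, 54950790 to 54958030, plus strand. None of these 4 genes overlaps another member. Psma7 (ENSMUSG00000027566.14) lies on chromosome 2, 180036374 to 180042433, minus strand. Psma5 (ENSMUSG00000068749.9) is on chromosome 3, 108256926 to 108279974, plus strand, and Psma1 (ENSMUSG00000030751.17) on chromosome 7, 114264606 to 114276118, minus strand. Coding lengths were close, from 702 bases (Psma2) to 789 bases (Psma1), but the transcripts used for length ran from 914 bases (Psma7) to 2911 bases (Psma2). Counts of 3 members may be split with near-identical processed pseudogenes that were themselves counted. The 4 counted copies of Psma3 held 5.58% as many counts as Psma3 itself, nearly all of them in Gm13835, which matched it at 100% over 665 bases. The copy of Psma4 held 3.28% and the 2 copies of Psma5 held 2.82%. Another 2 copies of Psma2 (94.8% over 699 bases and 91.9% over 644 bases) and 3 of Psma3 were not among the genes counted. Their effect on the counts of these members could not be measured. No copy of at least 90% identity over 200 bases was found for Psma1, Psma6 or Psma7.

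Because all 7 genes were higher under bortezomib, their promoters were read for motifs. RefSeq windows (GRCm38.p6) of 250 bases before and 50 bases after the start site were available for all 7 genes, with 8 windows in all since Psma6 has 2 start sites. The antioxidant response element core TGACNNNGC, searched on both strands, was found in 0 of the 7 genes and in 12.4% of all 32851 windows. The CCAAT box (CCAAT or ATTGG), a common promoter element bound by the factor NF-Y, was found in 5 of the 7 genes and in 37.4% of all windows. A gene counted if any of its windows held the motif, while the shares of all windows count each window singly. The absence of a match says only that these letters are not in these windows. The 250 bases before the start are shown for the genes with the largest rise in WT HSCs (Psma5 and Psma7), for the one with the smallest (Psma1), and for Psma6, which was not called in the knockout-labelled mice. They were chosen after their values were seen. Each is written 5′ to 3′ on the strand of the gene, with CCAAT boxes on either strand in capitals.
Psma5 (chr3:108256676-108256925, plus strand): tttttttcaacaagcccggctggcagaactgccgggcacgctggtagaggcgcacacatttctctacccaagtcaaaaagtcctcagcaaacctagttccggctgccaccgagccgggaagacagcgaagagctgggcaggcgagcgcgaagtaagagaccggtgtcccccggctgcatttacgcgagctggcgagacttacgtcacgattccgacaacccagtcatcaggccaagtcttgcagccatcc
Psma7 (chr2:180042465-180042714, minus strand): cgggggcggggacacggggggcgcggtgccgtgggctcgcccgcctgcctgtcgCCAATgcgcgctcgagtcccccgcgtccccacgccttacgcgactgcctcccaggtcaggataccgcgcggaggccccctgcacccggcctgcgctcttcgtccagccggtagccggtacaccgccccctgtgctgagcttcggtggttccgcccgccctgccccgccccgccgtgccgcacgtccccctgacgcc
Psma1 (chr7:114276117-114276366, minus strand): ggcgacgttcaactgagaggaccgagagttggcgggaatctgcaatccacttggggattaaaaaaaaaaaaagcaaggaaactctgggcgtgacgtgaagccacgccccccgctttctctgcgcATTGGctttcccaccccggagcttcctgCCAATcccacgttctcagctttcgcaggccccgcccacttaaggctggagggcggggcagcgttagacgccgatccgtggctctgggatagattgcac
Psma6, second start site (chr12:55398575-55398824, plus strand): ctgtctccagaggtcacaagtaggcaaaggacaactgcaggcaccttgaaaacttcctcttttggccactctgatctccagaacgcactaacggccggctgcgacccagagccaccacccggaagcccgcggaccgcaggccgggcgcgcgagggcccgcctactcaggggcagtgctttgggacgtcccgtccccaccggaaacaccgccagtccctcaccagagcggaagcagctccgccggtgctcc
The Psma7 sequence has 1 CCAAT box, 196 bases before the start, and the Psma1 sequence has 2, at 126 and 98 bases. The sequences of Psma5 and of the second start of Psma6 have none. The first start of Psma6 has boxes at 136 and 29 bases, and Psma2 has 1 at 54 bases. The window of Psma3 has 3, of which 1 lies before the start, at 139 bases. A relation between these boxes and the size of the rise was not tested.

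Libraries held 15005500 to 31481691 counts and 16095 to 18899 detected genes. Levels are CPM, counts relative to the size of the library, scaled over all 21 libraries by the trimmed mean of M values (TMM). Atg5, the targeted gene, was not lower in the knockout-labelled libraries. It stood at 39.1 to 74.2 CPM in WT DMSO and at 104.7 to 111 CPM in knockout-labelled DMSO, with 70.1 to 131 CPM in WT bortezomib and 91.6 to 139 CPM in knockout-labelled bortezomib. A count over the whole gene cannot show the loss of single exons, so the genotype could not be checked this way. All 9 HSC markers were detected in every group. In 3 of the treatment groups (WT under DMSO or bortezomib, and knockout-labelled under bortezomib) replicate 3 stood apart on the third principal component, with scores of 65.2, 38 and 47.6. In knockout-labelled DMSO replicate 3 was also the highest of its group, at 3.12 against -29 and -19.9. The share of Xist in the sum of Xist and Ddx3y counts, which separates female from male RNA, ran from 59.98% to 99.2% in WT DMSO, 31.9% to 90.3% in WT bortezomib, 0.235% to 0.987% in knockout-labelled DMSO and 0% to 100% in knockout-labelled bortezomib. Differences between genotypes under DMSO therefore cannot be told apart from sex, and the interaction described below includes these DMSO groups.

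All 7 genes were detected in all 21 libraries and passed the filter on low counts in both experiments. In WT DMSO the sum over the ring was 2313.5, 2306 and 3576 CPM in replicates 1, 2 and 3, and over all 21 libraries the ring took 0.201% to 0.545% of the counts. Levels of different genes were compared per kilobase. In WT DMSO Psma7 was highest at 723 ± 230 CPM per kilobase of transcript (SD, n = 3), followed by Psma6 at 481 ± 144 and Psma1 at 347 ± 61.6. Psma3 was lowest on this scale at 112 ± 35, and Psma2 stood at 121 ± 27.4. Both have the long transcript models, and per kilobase of coding sequence the lowest was Psma4, at 288 ± 58, with Psma7 again highest at 889 ± 283. The genes of subunits used in equal numbers thus differed in RNA level by 3.09 times per coding kilobase and by 6.44 times per transcript kilobase in WT DMSO. Psma7 ranked first in each of the 7 groups on either scale.

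**Figure D1:**
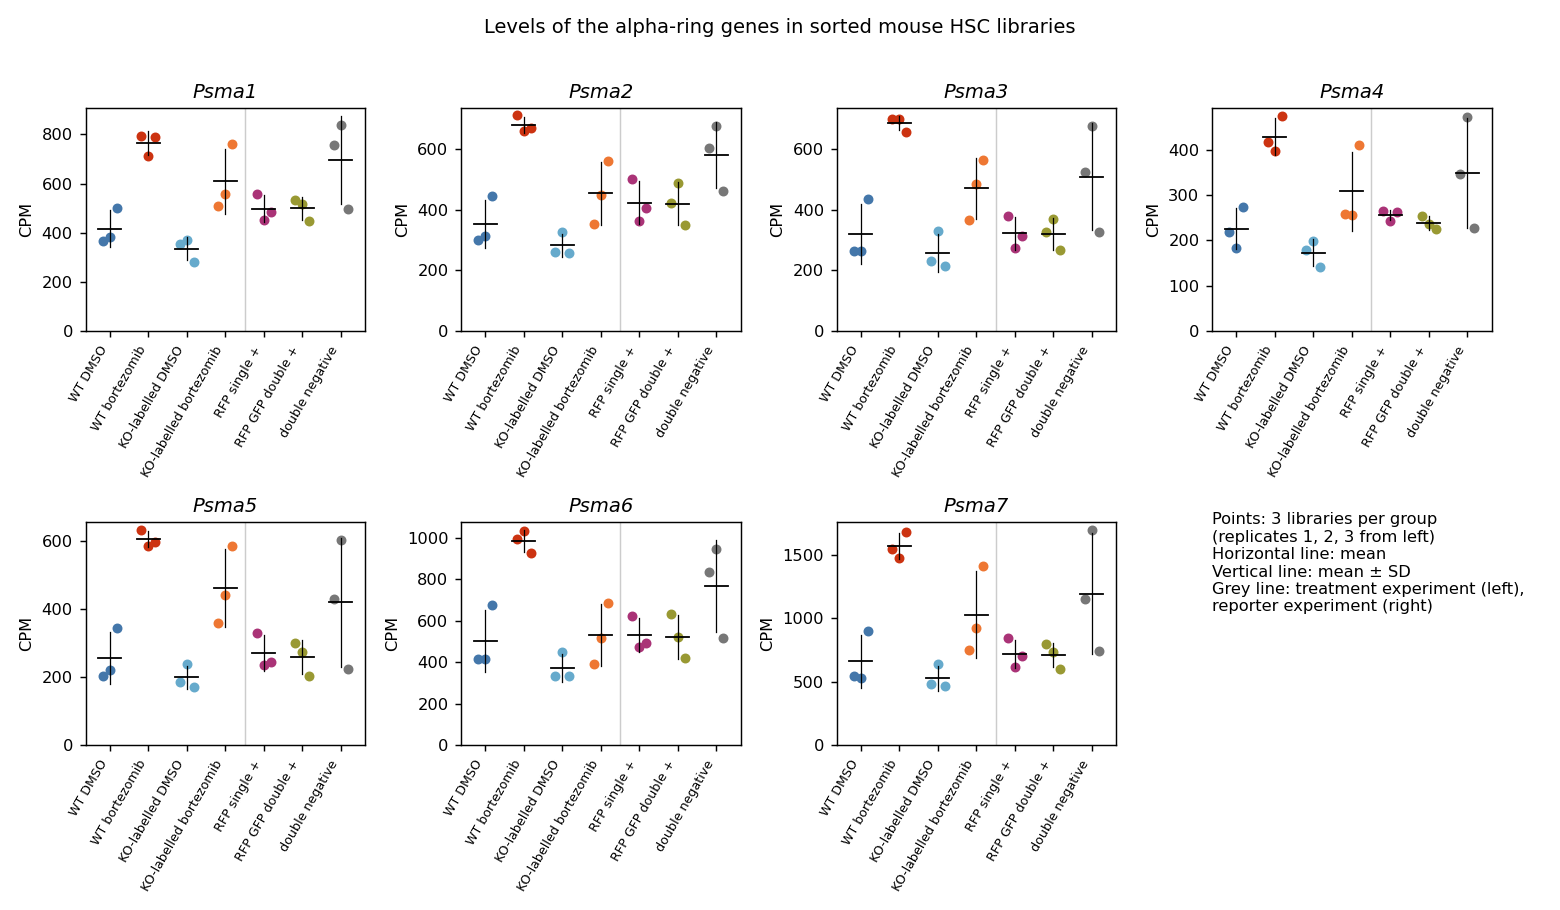
Levels of the 7 alpha-ring genes in CPM (linear axes from 0) in each of 21 libraries; points are replicates 1 to 3 of a group, the horizontal line is the mean and the vertical line the mean ± SD. In every panel the WT bortezomib libraries lie above the WT DMSO libraries without overlap, and the double negative libraries spread widely.

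Bortezomib in WT HSCs raised all 7 alpha-ring genes. The comparison asks how RNA levels of the ring stood a day after the second dose of a proteasome inhibitor. The rises ran from 1.87-fold (Psma1) to 2.42-fold (Psma7), and the 3 bortezomib libraries lay above the 3 DMSO libraries for each gene. Of all 16149 genes tested, 7.97% were called higher and 18.3% were higher without overlap. The median log2 fold change was 1.00 over the ring and -0.04 over all genes tested, and each member exceeded 89.8% to 95% of all genes. Calls used edgeR's quasi-likelihood test with Benjamini-Hochberg adjustment at 0.05.

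Psma6, whose product alpha1 begins the ring order, stood at 416, 414 and 675 CPM in WT DMSO and at 994, 1032 and 926 CPM in WT bortezomib. Its log2 fold change was 1.00 ± 0.22 (SE, adjusted p = 0.01, edgeR). Psma2 (alpha2) stood at 300.5, 312 and 444 CPM against 710.5, 659 and 669 CPM, a log2 fold change of 0.98 ± 0.19 (adjusted p = 0.00608, edgeR). In both genes DMSO replicate 3 was the highest of its group and still lay below every bortezomib library. Psma4 encodes alpha3, whose N-terminal tail is central to the closed gate. It was the least abundant member per coding kilobase and stood at 219, 184 and 274 CPM against 416, 396 and 475 CPM (0.96 ± 0.21, adjusted p = 0.00875, edgeR). Psma7 (alpha4), the most abundant, stood at 547, 532 and 904 CPM against 1550.2, 1479 and 1679 CPM, with a log2 fold change of 1.27 ± 0.24 (adjusted p = 0.00487, edgeR). Psma7 and Psma5 had the largest rises of the ring.

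Psma5 (alpha5) stood at 202, 221 and 343 CPM against 629.97, 584 and 596 CPM, a rise of 2.41-fold (log2 1.27 ± 0.22, adjusted p = 0.00379, edgeR). Psma1 (alpha6) stood at 367, 382 and 502 CPM against 795, 711 and 790.4 CPM, a log2 fold change of 0.90 ± 0.18 (adjusted p = 0.00657, edgeR). Psma1 had the smallest rise of the ring, and differences between members in the size of the rise were not tested. Psma3 (alpha7), whose C-terminus is a docking site for several other proteins, stood at 262, 262 and 435 CPM against 697, 699 and 657 CPM, a log2 fold change of 1.12 ± 0.22 (adjusted p = 0.00632, edgeR). The bortezomib libraries were tight in all 7 genes, while DMSO replicate 3 was the high library of its group in each. When it was left out together with replicate 3 of each bortezomib group, the 7 calls remained at a median of 1.36. Leaving out WT DMSO 2 ended the calls of Psma4 and Psma6 (adjusted p = 0.057 and 0.0621, edgeR), and leaving out WT DMSO 1 ended that of Psma6 (adjusted p = 0.0544, edgeR). Psma1, Psma2, Psma3, Psma5 and Psma7 were called in each of 16 alternative analyses.

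Markers of cell identity moved in the same samples. The summed level of the 9 HSC markers was 2890 to 3170 CPM in WT DMSO and 1630 to 2010 CPM in WT bortezomib, and 8 of the 9 fell, where 7.56% of all genes were called lower. The 7 erythroid markers summed to 71.3 to 97 CPM in WT DMSO and to 187 to 218 CPM in WT bortezomib, with 2 called higher and 1 lower. Of the 7 T and NK cell markers 3 were tested and 1 rose, Nkg7, at 73.0 ± 2.62 CPM in WT DMSO and 161 ± 30.6 CPM in WT bortezomib. It makes up most of that list's sum, and Cd3e, Cd3g and Cd8a were at 0 in both groups. Among the other lists, 1 of 5 progenitor and 1 of 8 monocyte and macrophage markers tested were called higher, as were 7.97% of all genes. Of 4 endothelial and stromal markers tested 2 were called lower. The neutrophil, megakaryocyte and B cell lists had 0 calls. The part of these shifts in the rise of the alpha ring was not tested. In sorted populations, fewer cells of a type and less RNA per cell cannot be told apart.

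**Figure D2:**
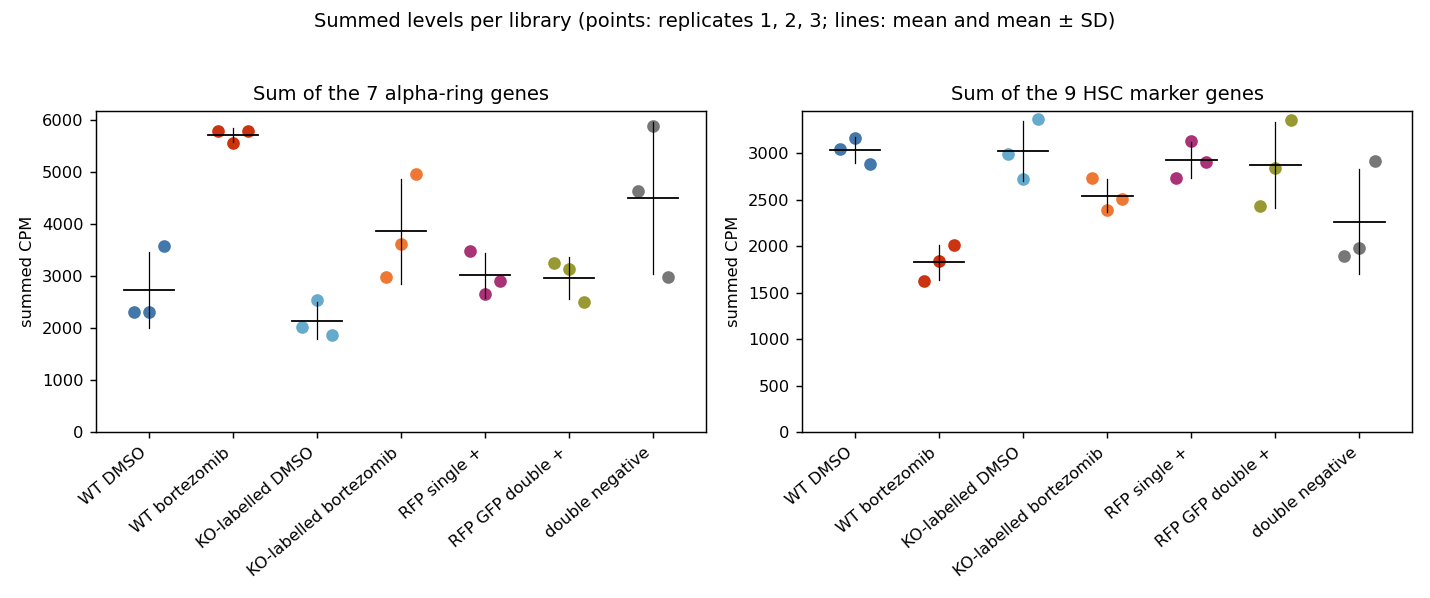
Summed CPM of the 7 alpha-ring genes (left) and of the 9 HSC marker genes (right) in each library; points are replicates 1 to 3, lines the mean and the mean ± SD, and both axes start at 0. WT bortezomib has the highest mean ring sum and the lowest mean marker sum of the 7 groups.

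In knockout-labelled HSCs bortezomib raised 5 of the 7 genes (Psma1, Psma3, Psma4, Psma5 and Psma7), where 2.02% of all genes tested were called higher. The libraries of the 2 groups did not overlap for 6 of the 7, where 10.4% of all genes were higher without overlap. The ring's median log2 fold change was 0.87, against 0.00 over all genes tested. Psma5 had the largest rise and Psma6 the smallest difference.

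Psma5 stood at 187, 237 and 171 CPM in knockout-labelled DMSO and at 359, 439 and 583 CPM in knockout-labelled bortezomib, a rise of 2.34-fold (log2 1.22 ± 0.22, adjusted p = 0.00514, edgeR). It was the 1 member called in all 16 alternatives of this comparison. Psma7 stood at 478, 639 and 465 CPM against 749.8, 928 and 1414 CPM (log2 0.98 ± 0.24, adjusted p = 0.0336, edgeR). Psma1 stood at 352, 371 and 281.5 CPM against 511, 559 and 760.2 CPM (log2 0.87 ± 0.18, adjusted p = 0.0146, edgeR). For each of these genes bortezomib replicate 3 was the highest library of its group. Psma3 stood at 232, 329 and 213 CPM against 364, 484 and 564 CPM (log2 0.88 ± 0.22, adjusted p = 0.0393, edgeR), and Psma4 at 179, 198 and 140.4 CPM against 259, 257 and 409.7 CPM (log2 0.85 ± 0.21, adjusted p = 0.0322, edgeR). In both genes every bortezomib library lay above every DMSO library, most narrowly between DMSO 2 and bortezomib 1 for Psma3.

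The other two genes did not pass the test. Psma2 stood at 261, 327 and 259 CPM against 353, 449 and 559.5 CPM, without overlap, with a log2 difference of 0.69 ± 0.19 (adjusted p = 0.058, edgeR). Psma6 stood at 334, 451 and 334 CPM against 392, 515 and 687 CPM, with a log2 difference of 0.52 ± 0.22 (adjusted p = 0.242, edgeR). The lowest bortezomib library of Psma6 lay below the highest DMSO library, and the gene was called in 0 of 16 alternatives. Psma2 was called in 6 of 16 alternatives, among them DESeq2 (adjusted p = 0.0111), the fit with no filter (0.0117) and the one with the Xist share as a covariate (0.0186). With Psma2 the count is 6. The count of 5 also depended on single libraries. It was 1 without knockout-labelled DMSO 3, 2 without DMSO 1 or bortezomib 3, and 3 without DMSO 2 or bortezomib 2. It was also 1 when only the 6 libraries compared entered the fit, and 2 when all 21 libraries shared a fit. The HSC markers summed to 2720 to 3370 CPM in knockout-labelled DMSO and 2390 to 2740 CPM in knockout-labelled bortezomib, and 1 of 9 fell (1.61% of all genes were called lower). The erythroid markers summed to 93.8 to 217 CPM and to 52.6 to 78.9 CPM, with 1 of 7 called lower. Their sum stood lower under bortezomib here and higher in WT HSCs, which followed Hbb-bt. That gene stood at 130 ± 60.5 CPM in knockout-labelled DMSO and 22.0 ± 21.4 CPM in knockout-labelled bortezomib. The list did not move as a whole, since 3 of its 7 genes had a positive log2 fold change here. Among the other lists, 1 of 8 monocyte and macrophage markers tested was called higher and 1 of 6 megakaryocyte markers lower. The part of these markers in the difference was not tested.

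The genotypes were then compared under bortezomib. Psma2 and Psma6 were lower in knockout-labelled than in WT HSCs, so 2 of the 7 genes fell, against 15.3% of all genes tested that were called lower. Without overlap, 5 of the 7 were lower (Psma2, Psma3, Psma5, Psma6 and Psma7), against 21.7% of all genes. Psma6 was lower by 0.89 ± 0.22 on the log2 scale (adjusted p = 0.00686, edgeR), at 392 to 687 CPM against 926 to 1032 CPM, and it was called in all 16 alternatives. Psma2 was at 353 to 559.5 CPM against 659 to 710.5 CPM, with a log2 difference of -0.58 ± 0.19 (adjusted p = 0.0292, edgeR). The other five genes had log2 differences between -0.33 (Psma1, adjusted p = 0.184) and -0.61 (Psma7, adjusted p = 0.0617). That of Psma1 was 0.06 with length and GC offsets in the fit. The number called moved with knockout-labelled bortezomib 3, the library highest in its group for all 7 genes, and all 7 were called without it. Only Psma6 was called when any other library of either group was left out. Markers differed between the same groups: the HSC markers summed to 2390 to 2740 CPM in knockout-labelled and 1630 to 2010 CPM in WT HSCs, with 6 of 9 called higher (17.2% of all genes were). The erythroid markers summed to 52.6 to 78.9 CPM and to 187 to 218 CPM, with 1 of 7 called higher and 1 lower. Hbb-bt averaged 22.0 CPM and 164 CPM in these groups, while 5 of the 7 had a positive log2 difference. Among the other lists, 3 of 8 monocyte and macrophage markers tested were called lower. Of 6 megakaryocyte markers 3 were lower and 1 higher, and of 5 progenitor markers 2 were higher and 1 lower. Of 4 endothelial and stromal markers 2 were higher, and the neutrophil and the T and NK cell lists had 1 lower each. The B cell list had 0 calls. The part of these markers in the lower alpha-ring levels was not tested.

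The drug responses of the genotypes were compared by the interaction, which asks whether bortezomib changed a gene by different amounts in knockout-labelled and WT HSCs. It was called for 0 of the 7 genes by edgeR, where 9.05% of all genes tested were called, and 0 of the 7 had an unadjusted p under 0.05. The log2 estimates ran from -0.03 ± 0.26 for Psma1 and -0.05 ± 0.30 for Psma5 to -0.48 ± 0.31 for Psma6 (adjusted p = 0.368, edgeR). All 7 estimates were negative, and each was less than 2 SE from 0. With length and GC offsets 3 of them turned positive (0.04 to 0.11), and with the Xist share as a covariate 6 did (0.01 to 0.26), none of them called. Leaving out single libraries also turned the estimate of Psma1, Psma4 or Psma5 to between 0.00 and 0.11, again uncalled. DESeq2 called 0, and limma voom with sample quality weights called 4 (Psma2, Psma3, Psma6 and Psma7, at -0.68 to -1.01). Without replicate 3 of WT DMSO and of both bortezomib groups edgeR called 3 (Psma2, Psma6 and Psma7, at -0.71 to -1.05). That fit kept replicate 3 of knockout-labelled DMSO, so it did not treat the groups alike. Whether these members were called as rising less in knockout-labelled HSCs thus depended on the analysis.

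Under DMSO the knockout-labelled and WT libraries overlapped for all 7 genes, where 8.92% of all genes were higher and 9.15% lower without overlap. edgeR called 0 of the 7, as it did for 0% of all genes tested, and 0 of the 7 had an unadjusted p under 0.05. DESeq2 and voom also called 0 of the 7. The log2 differences lay between -0.30 and -0.41, with standard errors of 0.18 to 0.24, and each was within 2 SE of 0.

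**Figure D3:**
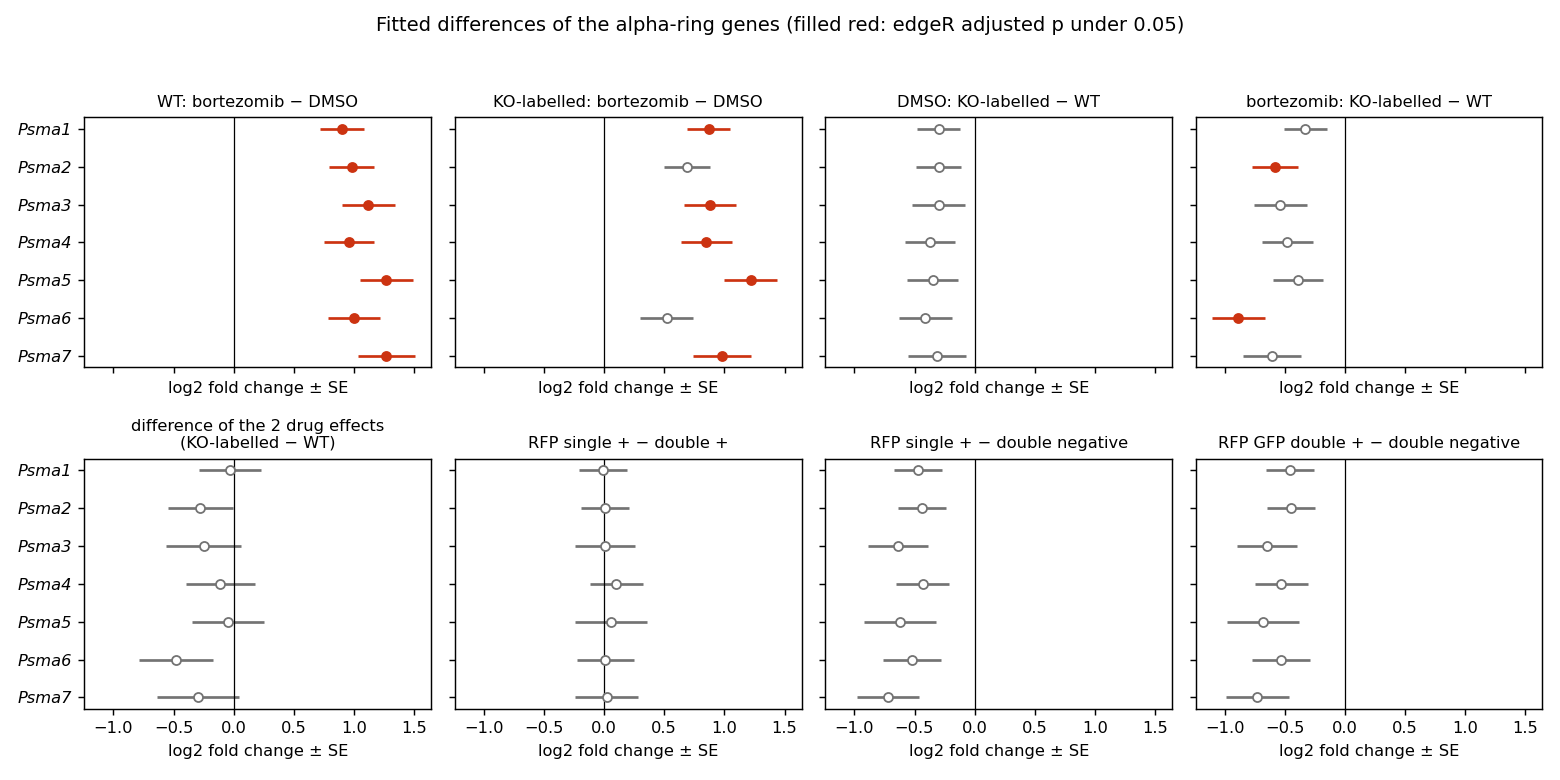
Fitted log2 fold changes of the 7 alpha-ring genes (points) with their standard errors (lines) in the 8 comparisons; filled red points have an edgeR adjusted p under 0.05. All 7 are called under bortezomib in WT HSCs, 5 in knockout-labelled HSCs and 2 between genotypes under bortezomib, and none in the interaction, the DMSO comparison or the 3 reporter comparisons.

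The make-up of the ring's RNA was described by the share of each gene in the summed CPM of the 7 genes, which removes differences common to all of them. These shares depend on each other and were not tested. Psma5 took 8.71% to 9.58% of the sum in WT DMSO and 10.3% to 10.9% in WT bortezomib. In knockout-labelled HSCs it took 9.18% to 9.3% under DMSO and 11.7% to 12.1% under bortezomib. Psma5 therefore had a larger share under bortezomib in each genotype, without overlap. Psma6 moved the other way in knockout-labelled HSCs, from 16.5% to 17.9% under DMSO to 13.1% to 14.2% under bortezomib, and these 3 libraries were the lowest of all 21 for its share. In WT HSCs its share was 17.9% to 18.9% under DMSO and 16% to 18.6% under bortezomib, with overlap. Psma7 took 23.1% to 25.3% in WT DMSO and 26.6% to 29% in WT bortezomib, and Psma1 took 14% to 16.6% and 12.8% to 13.7%. In knockout-labelled HSCs Psma7 took 23.6% to 25% under DMSO and 25.1% to 28.4% under bortezomib, while Psma1 averaged 15.7% and 15.9%. Psma2 took a smaller share under bortezomib in each genotype, at 12.4% to 13.5% against 11.5% to 12.3% in WT and 12.8% to 13.9% against 11.2% to 12.4% in knockout-labelled HSCs. The shares of Psma5, Psma7 and Psma2 were thus the 3 that moved without overlap in both genotypes. The gap was narrow for Psma7 in knockout-labelled HSCs (25.03% against 25.09%) and for Psma2 in WT HSCs (12.41% against 12.27%). Shares were taken only within the ring, so this count has no share over all genes beside it. Across the 21 libraries and all 21 pairs of members, Pearson's r between log2 CPM values ran from 0.89 to 0.98, with a median of 0.94. The points share library depth and scaling, so these correlations are a description.

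**Figure D4:**
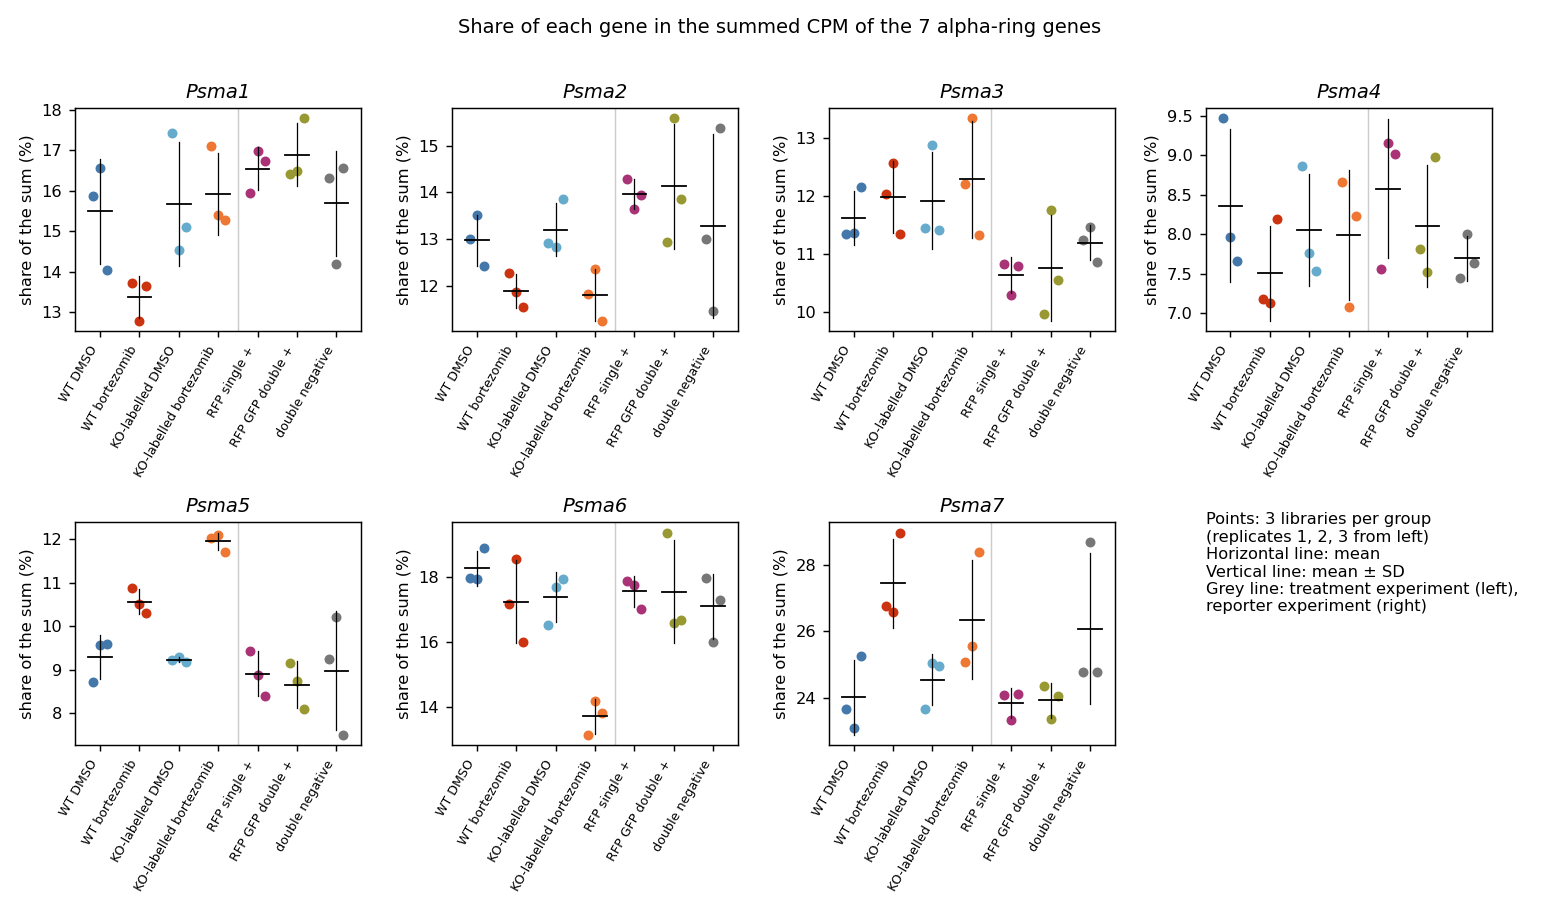
Share of each gene in the summed CPM of the 7 alpha-ring genes (percent; axes do not start at 0) in each library; points are replicates 1 to 3, lines the mean and the mean ± SD. Psma5 is higher under bortezomib in both genotypes, and Psma6 is lowest in the 3 knockout-labelled bortezomib libraries, at 13.1% to 14.2%.

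The alpha ring was set beside the other proteasome genes. In WT HSCs the 7 genes of the constitutive beta ring all rose, with a median log2 fold change of 1.04, close to the 1.00 of the alpha ring. The largest was Psmb3 (1.30 ± 0.18, adjusted p = 0.00193, edgeR), followed in p by Psmb4 and Psmb2. All 6 ATPase genes of the 19S cap rose at a median of 0.90, among them Psmc2 at 0.89 ± 0.16 (adjusted p = 0.00409, edgeR). Of 13 non-ATPase genes of the cap 11 rose, at a median of 0.69, led in p by Psmd13 (1.36 ± 0.20), Psmd14, the deubiquitinase of the cap (1.31 ± 0.21), and Psmd6 (0.97 ± 0.18). Apart from 2 non-ATPase genes, all listed genes of the constitutive core and cap thus rose in WT HSCs, where 7.97% of all genes were called higher. The immunoproteasome genes, which replace the catalytic beta subunits, did not pass the test in 3 of 3 cases. Psmb8 stood at 0.59 ± 0.22 (adjusted p = 0.0795, edgeR), Psmb10 at 0.32 and Psmb9 at 0.24. Psma8, the germ-cell counterpart of Psma7, was detected at 24.5 ± 5.70 CPM in WT DMSO and 24.5 ± 1.23 CPM in WT bortezomib (adjusted p = 0.958, edgeR).

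Of the 8 assembly chaperone genes 2 rose in WT HSCs, against 7.97% of all genes tested. These were Psmg3 (0.91 ± 0.21, adjusted p = 0.0116, edgeR) and Psmg1 (0.82 ± 0.23, adjusted p = 0.0287, edgeR), whose products act in alpha-ring assembly. In knockout-labelled HSCs 0 of the 8 passed in edgeR, with 2 at an unadjusted p under 0.05, and Psmg1 stood at -0.47 ± 0.23. Under bortezomib 5 of the 8 were lower in knockout-labelled than in WT HSCs, at a median of -0.96 over the list, against 15.3% of all genes called lower. They included Psmg1 (-1.29) and Psmg2 (-1.06, adjusted p = 0.000492, edgeR), partners in the earliest step of alpha-ring assembly. The interaction was called for both, at -1.28 (adjusted p = 0.0275, edgeR) for Psmg1 and -0.84 (adjusted p = 0.0456, edgeR) for Psmg2. Over the list the interaction was called for 2 of the 8, where 9.05% of all genes tested were called. No alternatives are given for these 2 genes, so how far their interaction depends on the Xist share was not tested. Their difference from the alpha ring was not tested either.

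In knockout-labelled HSCs 5 of the 7 beta-ring genes rose (median 0.83), as did all 6 ATPase genes (median 1.19) and 10 of 13 non-ATPase genes (median 1.20). Of all genes tested 2.02% were called higher there. Psmd1 (1.42 ± 0.17) and Psmd4 (1.32 ± 0.16) had an adjusted p of 0.000392 (edgeR). Both encode cap subunits, the first a scaffold and the second a ubiquitin receptor. Between genotypes under bortezomib 0 of 6 ATPase genes were called by edgeR (median 0.05, 1 at an unadjusted p under 0.05). Of 13 non-ATPase genes 6 were higher and 3 lower (median 0.03), where 17.2% of all genes tested were called higher and 15.3% lower. Against the same 15.3%, 2 of 7 beta-ring genes were lower (median -0.39). The 2 were Psmb5 (-1.04, adjusted p = 0.00297, edgeR), the chymotrypsin-like subunit that bortezomib binds, and Psmb6 (-0.80, adjusted p = 0.00896, edgeR). The alpha ring, at a median of -0.54, lay nearer to the beta ring than to the ATPases. In the interaction the medians were -0.25 for the alpha ring, -0.22 for the beta ring, 0.32 for the ATPases and 0.12 for the non-ATPase genes. Of the 13 non-ATPase genes 3 were called higher (Psmd1, Psmd3 and Psmd4), as were 702 of all 16149 genes tested. Differences between these lists were not tested.

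**Figure D5:**
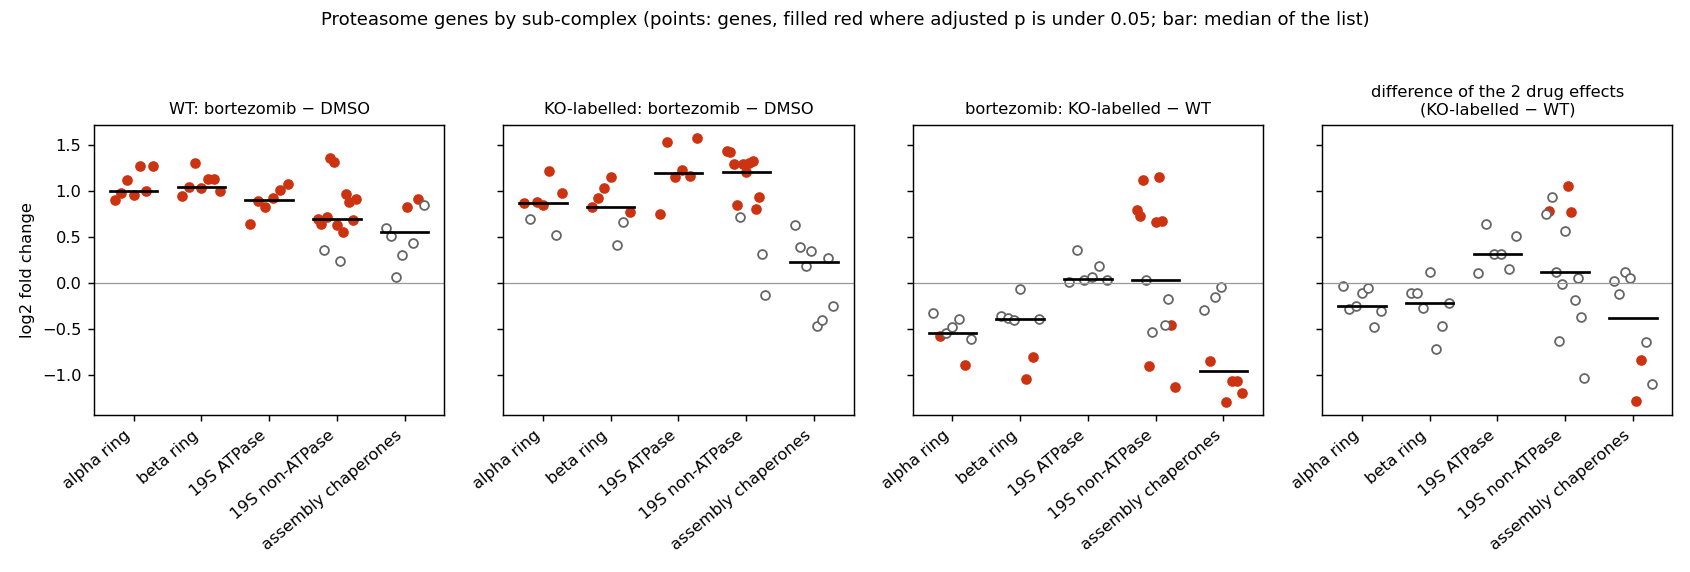
Log2 fold changes of proteasome genes by sub-complex in 4 comparisons of the treatment experiment; each point is a gene, filled red where the edgeR adjusted p is under 0.05, and the bar is the median of the list. The alpha and beta rings have medians of 1.00 and 1.04 under bortezomib in WT HSCs, while in knockout-labelled HSCs both 19S lists have higher medians (1.19 and 1.20) than the rings (0.87 and 0.83).

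Among the regulators of the proteasome genes, Nfe2l1 and Nfe2l2, which encode transcription factors, and Ddi2 and Ngly1, which encode the protease and the glycanase that process Nfe2l1, 0 of 4 passed the test in WT HSCs by edgeR, with 1 at an unadjusted p under 0.05. Nfe2l1 stood at -0.47 ± 0.21 (adjusted p = 0.14, edgeR) while the alpha ring rose. In knockout-labelled HSCs 0 of 4 passed, with 1 at an unadjusted p under 0.05, and the smallest p was that of Ngly1 (0.54 ± 0.15, adjusted p = 0.0642, edgeR). Under bortezomib Nfe2l1 (0.85, adjusted p = 0.00569, edgeR) and Nfe2l2 (0.60, adjusted p = 0.0201, edgeR) were higher in knockout-labelled than in WT HSCs. Nfe2l1 is mainly controlled by processing and turnover of its protein, which RNA counts do not show. Of the 5 genes of the other activators and of the inhibitor, 2 rose in WT HSCs, Psme2 (1.08 ± 0.29) and Psme3 (0.71 ± 0.19), and Psmf1, the inhibitor, stood at -0.28 ± 0.18. Of all genes tested 7.97% were called higher there. In knockout-labelled HSCs 0 of the 5 passed by edgeR, and 0 had an unadjusted p under 0.05.

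In the reporter experiment the sum of the ring was 3496, 2653 and 2904 CPM in RFP single positive cells, 3259, 3133 and 2513 CPM in double positive cells, and 4647, 5902 and 2989 CPM in double negative cells. Double negative replicates 1 and 2 were higher than every library of the sorted positive cells, and replicate 3 lay among them. Within each replicate number the double negative library was the highest of the 3. The Xist share was also alike within numbers, at 0% to 10.2% for replicate 1, 88.1% to 99.9% for replicate 2 and 0% to 5.45% for replicate 3, but the labels do not say that a number marks shared animals. With the replicate number as a block edgeR still called 0 of the 7 in each comparison, at median log2 differences from double negative cells of -0.49 and -0.52. Psma7 followed this order, at 842, 618 and 700.1 CPM, at 794, 731 and 604 CPM, and at 1151, 1695 and 740.1 CPM. edgeR called 0 of the 7 genes in each of the 3 comparisons, and 0%, 0% and 0.0065% of the 15375 genes tested were called between single and double positive, single positive and double negative, and double positive and double negative cells. DESeq2 and voom also called 0 of the 7 in each. Between single and double positive cells the log2 differences were -0.01 to 0.10, with 0 of 7 at an unadjusted p under 0.05. Against double negative cells they were -0.43 to -0.72 for single positive cells and -0.45 to -0.73 for double positive cells, with 5 and 7 of the 7 genes at an unadjusted p under 0.05, as were 7.54% and 8.55% of all genes tested. The last 2 comparisons share the double negative libraries. Psma7 had the largest difference in each (-0.72 ± 0.26 and -0.73 ± 0.26, adjusted p = 0.651 and 0.555, edgeR). Double negative 1 stood apart on the first principal component of the 9 libraries at a score of -118. The HSC markers summed to 1900 to 2920 CPM in double negative, 2740 to 3130 CPM in single positive and 2430 to 3360 CPM in double positive cells. The T and NK cell markers, mostly Nkg7, summed to 146 to 209, 78.5 to 135 and 79.2 to 102 CPM in the same order. Of the 3 tested, 0 were called against double negative cells. Neutrophil and B cell sums of double negative cells lay above those of single positive cells alone. The part of these markers in the difference was not tested.

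Over the 7 groups, the mean sum of the ring was highest in WT bortezomib at 5715 ± 134 CPM (SD, n = 3). It was followed by double negative at 4513 ± 1461, knockout-labelled bortezomib at 3865 ± 1015, RFP single positive at 3018 ± 433, double positive at 2969 ± 399.5, WT DMSO at 2732 ± 731 and knockout-labelled DMSO at 2147 ± 360.4. Each group overlapped the next in this order. WT bortezomib had the highest mean and knockout-labelled DMSO the lowest for each of the 7 genes. Psma5 was the 1 gene for which a neighbour pair did not overlap, with 584 CPM as the lowest WT bortezomib library and 583 CPM as the highest knockout-labelled bortezomib library.

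Genes whose pattern was most like the ring were sought among 9938 genes with a standard symbol and a mean of at least 5 CPM. The measure was Pearson's r with the mean log2 CPM of the 7 members. Symbols of the Gm, Rik and -ps kinds and those with capitals after the first letter were left out. The near-identical copies of the members were thus not ranked. Over all 21 libraries these were Psmb2 (r = 0.980), Psmb1 (0.976), Psmd14 (0.974), Psmb6 (0.967) and Rheb (0.965). Over the 12 treatment libraries the same 5 genes led in another order, from Psmd14 at 0.988 to Rheb at 0.981. Of the 5, Psmb1, Psmb2 and Psmb6 encode beta-ring subunits and Psmd14 a cap subunit, and Rheb encodes a small GTPase that activates the kinase mTORC1. The libraries share depth and scaling, and the correlations are given as a description with no test.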

How the data were processed

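The authors deposited a table of raw counts per gene for 21 libraries. Per the labels, RNA was extracted with an RNeasy Plus Micro kit and libraries were made by SMART-seq2. Bowtie 1.0.0, STAR 2.6.1, HTSeq 0.7.1 and the builds GRCm38.p4 and GRCh38 are named in the submitters' processing notes, without roles. The sources used here name neither the annotation release nor whether counting used strand. In all, 114 and 60 exonic bases of Psma4 and Psma5 overlap genes on the other strand, which held 148 and 31 counts over all libraries.

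Tests on the counts used edgeR 4.0.16 in R 4.3.3 (quasi-likelihood test, filterByExpr, TMM scaling, 1 fit per experiment with a mean per group). The filter left 16149 genes (treatment) and 15375 genes (reporter). The 8 comparisons were each adjusted by Benjamini-Hochberg over all genes tested, and a gene was called under 0.05. The procedure was tested on simulated data. CPM values use TMM factors over all 21 libraries. Log2 CPM values use a prior count of 2. Gene models and lengths are from GENCODE M21 on GRCm38 (47224 of 47729 genes matched by ID), copies were found with BLAST 2.17.0+, and promoters are from RefSeq. Plots were made in Python 3.11 with matplotlib 3.10.9.

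Alternatives were relative log expression factors, DESeq2 1.42.0, limma 3.58.1 voom with sample quality weights, no filter, only the libraries compared, all 21 libraries in 1 fit, the replicate number as a block, offsets for transcript length and GC content, the Xist share as a covariate, leaving out 3 libraries together, and leaving out each library. The members are always named. Of the other lists the text names up to 3 genes with the smallest p in a drug comparison, all genes of lists of 4 or fewer, and the 5 genes most like the ring. Psmb5 and Psmb6 were named in the genotype comparison after their values were seen. The members, lists, tests and alternatives were chosen with earlier results of these data known. The level of 1 marker gene is not reported here. The main results use every library, 0 columns had no sample, and no 2 libraries of a group were duplicates.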

Additional observations from a re-analysis of the deposited data

How the results depend on the processing

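The counts of alpha-ring genes called were 7 for bortezomib in WT HSCs, 5 for bortezomib in knockout-labelled HSCs, 2 for genotype under bortezomib and 0 in the other five comparisons. For WT bortezomib each alternative on all libraries called 7, and leaving out single libraries gave 5 to 7. For knockout-labelled bortezomib the fit of only the libraries compared called 1, all 21 libraries in 1 fit called 2, and leaving out single libraries gave 1 to 6. For genotype under bortezomib DESeq2 called 4, voom 7, no filter 4, the Xist share as a covariate 5, and the fit without replicate 3 of WT DMSO and of both bortezomib groups 7, while leaving out single libraries gave 1 to 7. For the interaction voom called 4 and the fit without those 3 libraries called 3. The cause of these shifts was not tested. No called value changed sign in any alternative. Psma1 between genotypes under bortezomib, which was not called, moved from -0.33 to 0.06 with offsets for length and GC content.

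Replicate numbers recur in every group. Deviations of same-numbered libraries from their group means correlated at -0.03 to 0.18 in the treatment and -0.01 to 0.13 in the reporter experiment, so the numbers were not taken to pair the libraries, although 8 of 12 and 8 of 9 libraries correlated best with their own number and the Xist shares of the reporter libraries went with the number. With the replicate number as a block, 7 genes were called for WT bortezomib, 6 for knockout-labelled bortezomib, 4 for genotype under bortezomib and 0 elsewhere. Each group holds 3 libraries, and counting error is small beside their spread at these depths.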

Other observations

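The same 9938 genes were ranked within the 9 reporter libraries alone. Those with the highest Pearson's r to the mean log2 CPM of the alpha ring were Mtch2 (0.998), Ran (0.989), Prps1 (0.985), Mrpl18 (0.985) and Psmb5 (0.982). Mtch2 encodes an outer mitochondrial membrane protein, Ran a GTPase of nuclear transport, Prps1 an enzyme of nucleotide synthesis and Mrpl18 a mitochondrial ribosomal protein. Only 1 of these 5 is a proteasome gene, whereas 4 of the 5 nearest genes over the treatment libraries are. This list was made after the other values were seen, and the correlations carry no test.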
